A study of Mus musculus with 19 samples.

Results

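The E2F family and its dimer partner DP1 were followed in RNA of mouse small intestinal crypts. The members were set by name: the genes E2f1, E2f2, E2f3, E2f4, E2f5, E2f6, E2f7, E2f8 and Tfdp1, which encodes DP1. These are 9 of the 55487 genes listed, and all 9 passed the filter on low counts that left 17875 genes for testing. Crypts came from mice with both copies of the neurotensin gene (Nt+/+) and from mice lacking neurotensin (Nt-/-), with free access to food (ad libitum) or after a 48-hour fast. Of the Nt+/+ mice 5 were fed and 5 fasted, and of the Nt-/- mice 4 were fed and 5 fasted, male and female, with 1 library per mouse. The labels give the strain of all mice as C57BL/6, and the study used littermates as controls. The study describes mice of both genotypes with an Lgr5-EGFP reporter allele and lists mice without it too, and the labels of the sequenced mice do not name the allele. Crypts were released with EDTA from the proximal part of the small intestine and were not sorted, so each library holds all the cell types of the preparation.

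E2F proteins bind DNA and set the transcription of the genes that a cell needs to copy its genome. E2F1, E2F2 and E2F3 activate these genes at the end of G1, whereas E2F4 and E2F5 act mainly as repressors with the pocket proteins of the retinoblastoma family, and E2F6 represses together with Polycomb proteins. These 6 pair with DP1 or its relative DP2, but E2F7 and E2F8 bind DNA without a DP partner and switch the same targets off again later in S phase. In the crypt, dividing progenitors carry most of this activity, and it ceases as cells leave the crypt and differentiate.

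On GRCm38, in the GENCODE vM21 annotation, the activator genes lie at chr2:154559407-154569892 (E2f1, minus strand), chr4:136172394-136196057 (E2f2, plus strand) and chr13:29906575-29986063 (E2f3, minus strand). The repressor genes lie at chr8:105297663-105305370 (E2f4, plus strand), chr3:14578641-14606309 (E2f5, plus strand) and chr12:16810963-16839742 (E2f6, plus strand). The atypical genes lie at chr10:110745439-110787384 (E2f7, plus strand) and chr7:48866429-48881596 (E2f8, minus strand), and Tfdp1 lies at chr8:13338751-13378448 on the plus strand.

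Promoter sequences are shown for the 3 E2Fs whose fall with fasting passed the test in both genotypes, and for E2f3, whose change did not pass it in either genotype. Each is 300 bases, from 250 bases before to 50 after the RefSeq start site on GRCm38.p6, written 5′ to 3′ on the gene's own strand. Capitals mark the letters of the E2F consensus in any of its forms, which were the letters TTCCCGC, the letters TTCGCGC, the letters TTGCCGC and the letters TTGGCGC, searched on both strands. The windows lie at chr4:136172024-136172323 on the plus strand for E2f2, chr10:110745189-110745488 on the plus strand for E2f7, chr7:48881547-48881846 on the minus strand for E2f8 and chr13:29986014-29986313 on the minus strand for E2f3.
E2f2: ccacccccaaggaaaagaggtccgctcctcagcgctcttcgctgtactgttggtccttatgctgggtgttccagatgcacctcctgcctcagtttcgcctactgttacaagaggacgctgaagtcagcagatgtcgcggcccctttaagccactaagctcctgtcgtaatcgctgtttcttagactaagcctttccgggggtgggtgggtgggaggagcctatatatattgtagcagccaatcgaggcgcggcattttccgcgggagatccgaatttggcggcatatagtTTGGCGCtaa
E2f7: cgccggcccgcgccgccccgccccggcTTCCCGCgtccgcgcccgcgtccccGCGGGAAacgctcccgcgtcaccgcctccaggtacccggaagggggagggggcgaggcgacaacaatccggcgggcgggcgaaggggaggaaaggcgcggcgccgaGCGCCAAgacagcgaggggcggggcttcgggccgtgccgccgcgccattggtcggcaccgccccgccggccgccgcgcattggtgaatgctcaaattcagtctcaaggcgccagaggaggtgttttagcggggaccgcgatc
E2f8: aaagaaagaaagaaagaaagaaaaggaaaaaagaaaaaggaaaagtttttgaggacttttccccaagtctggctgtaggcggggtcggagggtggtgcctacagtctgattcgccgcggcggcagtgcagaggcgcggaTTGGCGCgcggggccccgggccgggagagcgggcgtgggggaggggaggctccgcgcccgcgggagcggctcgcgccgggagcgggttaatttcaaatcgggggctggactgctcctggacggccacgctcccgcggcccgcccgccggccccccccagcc
E2f3: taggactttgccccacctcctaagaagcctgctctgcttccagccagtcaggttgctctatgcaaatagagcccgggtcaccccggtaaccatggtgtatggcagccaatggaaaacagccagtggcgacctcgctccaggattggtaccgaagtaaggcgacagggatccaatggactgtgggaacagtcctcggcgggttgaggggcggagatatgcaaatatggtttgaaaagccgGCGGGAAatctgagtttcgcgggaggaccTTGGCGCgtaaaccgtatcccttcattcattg

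E2f7 held 3 matches, which began 223, 198 and 92 bases upstream of the start site. E2f8 held 1, which began 111 bases upstream and overlapped a CCAAT box on the opposite strand, and E2f2 held 1, which began 40 bases past the start site. E2f3 held 2, of which the first began 11 bases upstream. E2f2 and E2f3 each have a second RefSeq window, not printed here, which held no E2F match. RefSeq windows were found for 7 of the 9 members, and 5 of these 7 had at least 1 match, Tfdp1 (1 match) being the fifth. Over all 27025 genes with a window the share was 10.9%, and over the target genes of E2F described below it was 25 of 37 genes, or 67.6%. The cell cycle homology letters TTTGAA stood in 3 of the 7 members (20.2% of all genes), among them E2f8, and the letters CCAAT in 4 of the 7 (41.1% of all genes). For E2f2 the letters TTTGAA stood only in the window not printed. The E2f6 window held no E2F match, and the window given for E2f1 lies inside the gene rather than at its annotated end. The letters were chosen after the sequences had been seen, and a match describes the letters alone.

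Depth ranged from 9059418 to 35068669 total counts per mouse (median, 18541770), and the 2 shallowest libraries were replicates 2 and 4 of the fasted Nt-/- group. No member had fewer than 45 counts in any mouse. Counts were lowest for E2f1 (45 to 365 per mouse) and highest for Tfdp1 (581 to 3395 per mouse). Nts, the neurotensin gene, was used to check the genotype. It stood at 4.98 to 8.59 CPM (counts scaled to library size by TMM) in Nt+/+ mice and at 0.145 to 0.793 CPM in Nt-/- mice, with no overlap. Replicate 5 of the fasted Nt+/+ group carries Nt+/+ in its title but Nt-/- in its genotype label. The title decided its group. Its Nts level of 5.43 CPM lay within the range of the fasted Nt+/+ group (4.98 to 5.71 CPM) and above every Nt-/- mouse. The Nts level thus matches the title and not the genotype label. Markers fixed for crypt stem cells, dividing cells, Paneth cells and enterocytes were all measured in every group. The 7 markers of stroma, muscle and vessels summed to 7.96 to 17.0 CPM per mouse, and the 7 leukocyte markers to 42.5 to 134.7 CPM.

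On a scale per length, in the deposited TPM (transcripts scaled to their length and to the library), Tfdp1 was the most abundant member in every mouse. Its level was 63.9 ± 5.35 TPM (SD, n = 5) in fed Nt+/+ mice, and it made up 33.5% to 38.1% of the summed TPM of the 9 genes across the 19 mice. E2f4 held rank 2 in all 19 mice (34.7 ± 1.03 TPM in fed Nt+/+ mice, SD, n = 5). E2f8, an atypical repressor, came next (26.5 ± 1.34 TPM), and E2f2 was the leading activator and followed it (19.3 ± 1.51 TPM), again in all 19 mice. The next 4 genes were close together. E2f6 (9.58 ± 1.17 TPM), E2f3 (7.74 ± 1.19 TPM), E2f5 (7.19 ± 0.827 TPM) and E2f7 (7.17 ± 0.884 TPM) followed, with E2f6 at rank 5 or 6 and the others between ranks 5 and 8. E2f6 was above E2f3 in 14 of 19 mice, E2f3 above E2f5 in 10 of 19 and E2f5 above E2f7 in 16 of 19, so the ranges of these neighbours overlapped, least clearly ordered for E2f3 and E2f5. E2f1 was lowest in all 19 mice, at 4.23 ± 0.631 TPM in fed Nt+/+ mice. E2f2 exceeded it in every mouse.

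**Figure D1:**
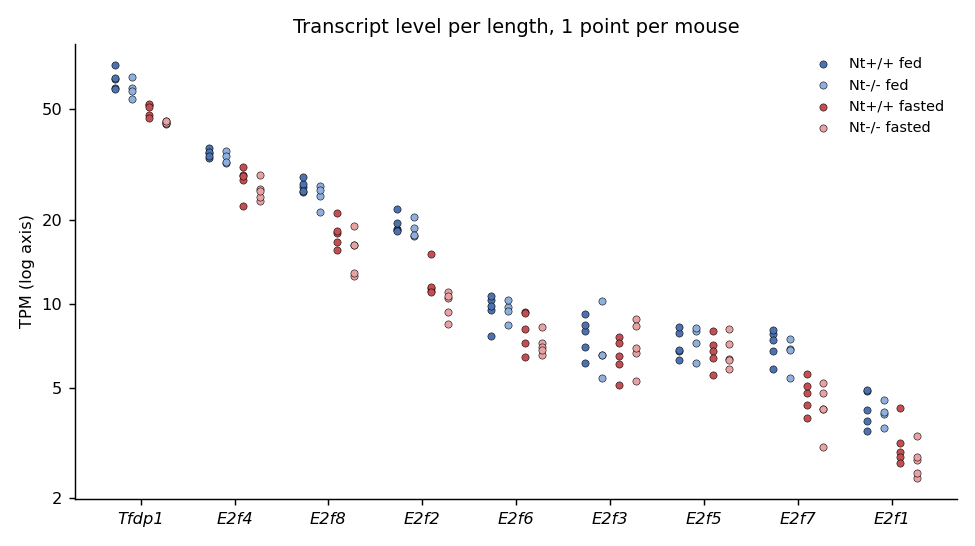
Level of each family member in TPM on a log axis, 1 point per mouse, with the 4 groups side by side and the genes ordered by their mean in fed Nt+/+ mice. Tfdp1, E2f4, E2f8 and E2f2 hold the first 4 places in all 19 mice, and E2f1 the last.

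The summed TPM of the family was 154.9 to 194.1 in ad libitum–fed mice and 117.6 to 147.1 in fasted mice, and the ranges did not overlap. The share of E2f7 and E2f8 in that sum was 18.7% ± 0.470 (SD, n = 5) in fed Nt+/+ mice and 16.5% ± 1.39 (n = 5) in fasted Nt+/+ mice. The share of E2f4, E2f5 and E2f6 was 28.6% ± 1.22 in the former and 31.1% ± 1.24 in the latter. These shares are given as descriptions and were not tested.

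The first question was how a fast of 48 hours changed the family in mice that make neurotensin. In Nt+/+ crypts all 9 log2 fold changes (fasted relative to ad libitum–fed) were below 0, and 4 of the 9 fell by edgeR's quasi-likelihood test (adjusted p under 0.05): E2f2, E2f7, E2f8 and Tfdp1. Of all 17875 genes tested, 10.4% fell and 11.2% rose at this threshold, and 50.9% had a log2 fold change below 0. No member rose. The median log2 fold change of the members was −0.35, against −0.01 over all genes tested. In Nt-/- crypts, 6 of the 9 fell, namely the same 4 with E2f1 and E2f4, against 12.6% of all genes that fell and 12.5% that rose. Their median was −0.40. Values below are in CPM, which compare mice within a gene, and differences are log2 fold changes with their standard errors. Overlap between groups was looked at for the members alone. The share of all genes whose groups do not overlap is not known, so a lack of overlap only describes the gene named.

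E2f2, the activator with the highest level, fell most. In ad libitum–fed Nt+/+ mice it stood at 88.5, 75.0, 82.2, 68.6 and 74.7 CPM, and in fasted Nt+/+ mice at 47.6, 43.9, 57.6, 37.7 and 49.4 CPM. The Nt-/- mice stood at 77.4, 75.3, 72.9 and 77.8 CPM when fed and at 41.3, 35.7, 43.7, 34.1 and 46.3 CPM when fasted. Every fasted mouse lay below every fed mouse, in both genotypes. The log2 fold change was −0.72 (SE 0.10, adjusted p = 5.15e-05, edgeR) in Nt+/+ mice, a decrease to 0.608 of the fed level, and −0.91 (SE 0.11, adjusted p = 6.26e-06) in Nt-/- mice, a decrease to 0.532 of it.

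E2f1, which also drives apoptosis genes when in excess, was low and varied more. It measured 10.3, 7.56, 12.4, 9.29 and 10.7 CPM in fed Nt+/+ mice and 7.995, 6.55, 10.8, 6.40 and 7.28 CPM in fasted Nt+/+ mice, so the groups overlapped. Nt-/- mice had 10.8, 8.17, 11.2 and 8.79 CPM when fed and 9.29, 5.11, 6.53, 5.62 and 6.92 CPM when fasted, where only replicate 1 of the fasted group lay within the fed range. The log2 fold change was −0.36 (SE 0.17, adjusted p = 0.153) in Nt+/+ mice and −0.53 (SE 0.19, adjusted p = 0.0436) in Nt-/- mice. E2f1 passed in Nt+/+ mice without replicate 3 of the fasted group (adjusted p = 0.0438) and with a block for either replicate number, as described below. The call in Nt-/- mice stood near the threshold. It was lost when the 2 shallow libraries were left out (−0.36, adjusted p = 0.224), without a filter, with sex as a covariate, in a fit of the groups compared, and without fed Nt+/+ replicate 5, fasted Nt+/+ replicate 2, fed Nt-/- replicate 1, 3 or 4, or fasted Nt-/- replicate 2, 3, 4 or 5 (adjusted p from 0.0512 to 0.129).

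E2f3, the remaining activator, did not pass the test in either genotype. Fed Nt+/+ mice had 30.6, 31.7, 32.8, 34.3 and 36.7 CPM and fasted Nt+/+ mice 23.3, 30.2, 29.8, 29.7 and 29.7 CPM. The 2 groups did not overlap, but the log2 fold change was small (−0.22, SE 0.12, adjusted p = 0.196). The fed values of 26.6, 27.8, 29.7 and 40.4 CPM and the fasted values of 26.3, 34.5, 27.1, 28.1 and 36.4 CPM of Nt-/- mice overlapped widely, with a log2 fold change of −0.03 (SE 0.12, adjusted p = 0.897). An antisense gene, Gm11365, overlaps E2f3 over 1979 bases, taken over whole genes, and whether their exons overlap was not checked. The strand setting of the counting is not given in the sources used here, so whether any reads of this pair were mixed is not known.

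**Figure D2:**
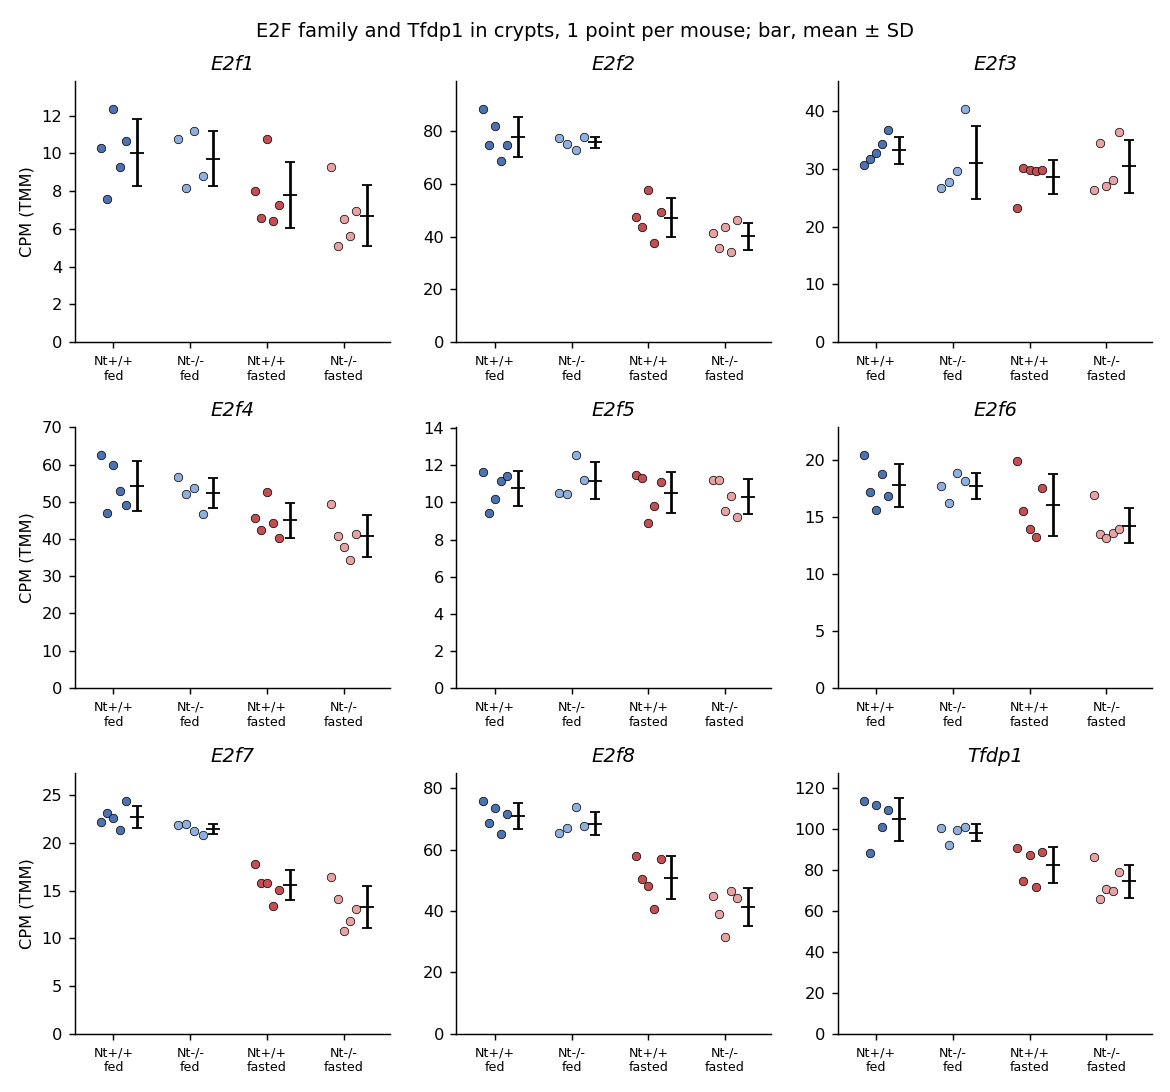
CPM of each of the 9 members, 1 point per mouse in the 4 groups, with the group mean ± SD beside the points and each axis starting at 0. For E2f2, E2f7 and E2f8 every fasted mouse lies below every ad libitum–fed mouse of its genotype, and E2f5 shows no separation.

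Of the repressors that act with pocket proteins, E2f4 is the more abundant. It measured 62.6, 46.9, 59.9, 52.8 and 49.3 CPM in fed Nt+/+ mice and 45.7, 42.4, 52.7, 44.3 and 40.2 CPM in fasted Nt+/+ mice. The values in Nt-/- mice were 56.6, 52.1, 53.8 and 46.8 CPM when fed and 49.4, 40.9, 37.9, 34.3 and 41.2 CPM when fasted. The groups overlapped in both genotypes, through replicate 3 of the fasted Nt+/+ group and replicate 1 of the fasted Nt-/- group. The log2 fold change was −0.27 (SE 0.10, adjusted p = 0.0608) in Nt+/+ mice and −0.36 (SE 0.11, adjusted p = 0.0170) in Nt-/- mice. E2f4 passed in Nt+/+ mice with at least 10 counts (adjusted p = 0.0443), with upper quartile normalization (0.0420) and without fed Nt+/+ replicate 2, fasted Nt+/+ replicate 3 or fasted Nt-/- replicate 1 (adjusted p from 0.0269 to 0.0389). It also passed there with a block for either replicate number. The call in Nt-/- mice was lost without replicate 1 of the fed Nt-/- group (−0.32, adjusted p = 0.0579) and without the 2 shallow libraries (−0.29, adjusted p = 0.0931).

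E2f5 was the steadiest member, with a range of 8.90 to 12.6 CPM over all 19 mice and a coefficient of variation of 9.07%. Its log2 fold change was −0.04 (95% interval −0.25 to 0.18) in Nt+/+ mice and −0.12 (95% interval −0.35 to 0.11) in Nt-/- mice, and neither passed the test (adjusted p = 0.846 and 0.468). E2f6, the Polycomb-linked repressor, ranged from 15.6 to 20.4 CPM in fed and 13.3 to 19.9 CPM in fasted Nt+/+ mice, with overlap (−0.15, SE 0.11, adjusted p = 0.370). It ranged from 16.2 to 18.8 CPM in fed and from 13.2 to 16.9 CPM in fasted Nt-/- mice, and the log2 fold change of −0.31 (SE 0.12) missed the threshold at an adjusted p of 0.0581. Of the fasted Nt-/- mice, 4 of 5 lay below all 4 fed ones. E2f6 passed there with at least 10 counts (adjusted p = 0.0407), with upper quartile normalization (0.0399) and without fasted Nt+/+ replicate 1 or 4 or fasted Nt-/- replicate 1 (adjusted p from 0.0234 to 0.0485). It also passed there with a block for either replicate number.

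The atypical repressors, which are themselves E2F target genes, fell in both genotypes. E2f7 measured 22.2, 23.1, 22.6, 21.4 and 24.5 CPM in fed Nt+/+ mice and 17.8, 15.8, 15.9, 13.4 and 15.1 CPM in fasted Nt+/+ mice. Nt-/- mice had 21.9, 22.03, 21.2 and 20.8 CPM when fed and 16.5, 14.2, 10.8, 11.8 and 13.1 CPM when fasted. Fed and fasted mice did not overlap, and the coefficient of variation of the 4 fed Nt-/- mice was 2.59%. The log2 fold change was −0.55 (SE 0.10, adjusted p = 0.000569) in Nt+/+ mice and −0.69 (SE 0.10, adjusted p = 8.75e-05) in Nt-/- mice.

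E2f8 measured 75.9, 68.6, 73.7, 65.2 and 71.4 CPM in fed Nt+/+ mice and 58.0, 50.6, 48.1, 40.6 and 56.9 CPM in fasted Nt+/+ mice. The Nt-/- mice had 65.4, 66.9, 73.8 and 67.8 CPM when fed and 45.0, 38.9, 31.6, 46.6 and 44.1 CPM when fasted. Again no fasted mouse reached the lowest fed one. The log2 fold change was −0.48 (SE 0.10, adjusted p = 0.00184) in Nt+/+ mice and −0.73 (SE 0.11, adjusted p = 5.82e-05) in Nt-/- mice. On the opposite strand, E2f7 overlaps 1700020G17Rik over 2800 bases and E2f8 overlaps Gm2788 over 3639 bases, with the same limit as for E2f3.

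Tfdp1, the partner shared by the first 6 E2Fs, fell by less than these but in both genotypes. It measured 114, 88.2, 112, 101 and 109 CPM in fed Nt+/+ mice and 90.7, 74.4, 87.2, 71.4 and 88.5 CPM in fasted Nt+/+ mice, where replicate 2 of the fed group lay within the fasted range. Values in Nt-/- mice were 100.2, 92.1, 99.3 and 101 CPM when fed and 86.3, 65.9, 70.9, 69.5 and 79.2 CPM when fasted, with no overlap. The log2 fold change was −0.35 (SE 0.09, adjusted p = 0.00774) in Nt+/+ mice and −0.40 (SE 0.09, adjusted p = 0.00363) in Nt-/- mice. RefSeq lists a pseudogene of Tfdp1, so some reads may be divided between the copies. The calls of E2f2, E2f7, E2f8 and Tfdp1 held in both genotypes under each of the 10 other settings tried and without each of the 19 mice in turn.

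**Figure D3:**
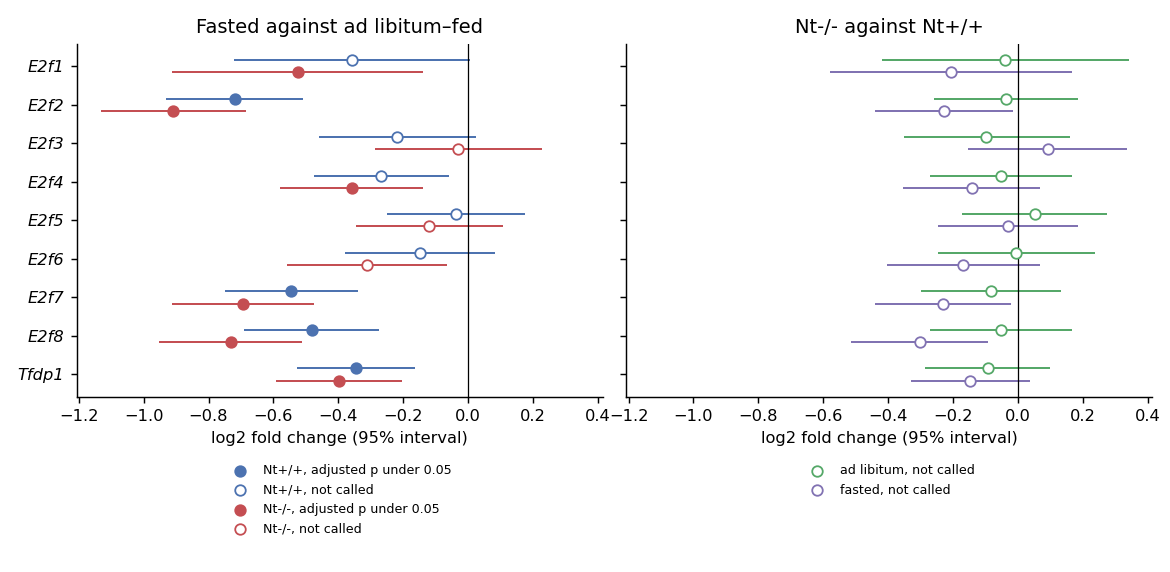
Log2 fold change of each member with its 95% interval for the 48-hour fast in each genotype (left) and for Nt-/- against Nt+/+ mice in each diet (right), with filled points at an adjusted p under 0.05. All points on the left lie below 0 and 10 are filled, and none on the right is filled.

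Markers of several cell types moved with fasting as well. The 6 markers of dividing cells (Mki67, Top2a, Ccnb1, Aurka, Bub1 and Cenpe) summed to 1483 to 1696 CPM in fed and 951.7 to 1296 CPM in fasted Nt+/+ mice, and to 1410 to 1547 CPM in fed and 796.4 to 1073 CPM in fasted Nt-/- mice. Of them, 4 of 6 fell in Nt+/+ mice (median log2 fold change of the 6, −0.44) and 6 of 6 in Nt-/- mice (median, −0.62). The 8 enterocyte markers summed to 5159 to 10010 CPM in fed and 10040 to 19450 CPM in fasted Nt+/+ mice, and to 7318 to 10670 and 17160 to 22450 CPM in Nt-/- mice. Of these 6 of 8 and 7 of 8 rose. Goblet cell markers fell in 2 of 6 (median of the 6, −0.36, Nt+/+) and 3 of 6 (median, −0.87, Nt-/-), and stem cell markers in 1 of 6 (median, −0.03) and 2 of 6 (median, −0.23). Over all genes, 10.4% and 12.6% fell. The stem cell markers were split, with 3 of 6 above 0 in Nt+/+ mice (range, −0.63 to 0.63) and 1 of 6 in Nt-/- mice. Of the goblet cell markers, 2 of 6 lay above 0 in each genotype. The part of these cell types in the fall of the E2F genes was not tested. In such bulk RNA fewer cells of a type cannot be told apart from less RNA per cell. The fall of E2f2 (−0.72, SE 0.10, and −0.91, SE 0.11) was larger than that of any of the 6 dividing-cell markers in the same genotype. Bub1 had the lowest value of these (−0.67 and −0.84). Ccnd1 (−0.93 and −0.93) and Pola1 (−0.83 and −0.92), from the lists below, fell further than E2f2. These differences were not tested.

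Most of the listed target genes of E2F at the entry into S phase fell. In a list of 45 such genes, all measured, 30 fell and none rose in fasted Nt+/+ mice (10.4% of all genes fell), and 37 fell and none rose in fasted Nt-/- mice (12.6%). The medians of the list were −0.39 and −0.48. The smallest p-values in Nt+/+ mice belonged to Pola1, the catalytic subunit of DNA polymerase alpha (−0.83, SE 0.10, adjusted p = 1.48e-05), Rrm2, the regulatory subunit of ribonucleotide reductase (−0.79, SE 0.12, adjusted p = 7.66e-05), and Cdc6, which loads the replicative helicase (−0.75, SE 0.12, adjusted p = 0.000291). In Nt-/- mice Pola1 again had the smallest p (−0.92, SE 0.11, adjusted p = 7.49e-06). With the 2 shallow libraries left out, 30 of 45 and 32 of 45 fell.

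Genes that act upstream of the E2Fs moved in part. For the counts in this list and in those that follow, 10.4% of all genes fell and 11.2% rose in Nt+/+ mice. In Nt-/- mice, 12.6% of all genes fell and 12.5% rose. Of 9 cyclins, kinases and their phosphatase that act in G1, 4 fell in Nt+/+ mice: Ccnd1 (−0.93, SE 0.18, adjusted p = 0.000906), Ccnd3 (−0.46, SE 0.09, adjusted p = 0.00100), Ccne1 (−0.66, SE 0.18, adjusted p = 0.0119) and Ccne2 (−0.67, adjusted p = 0.0137). D-type cyclins start the phosphorylation that releases E2Fs from pocket proteins, and E-type cyclins, which are also E2F targets, complete it. The same 4 fell in Nt-/- mice, Ccnd1 by the same amount (−0.93, SE 0.19, adjusted p = 0.00114), together with Cdk2 (−0.30, adjusted p = 0.0317). Ccnd2, the remaining D-type cyclin, had a log2 fold change of 0.37 in Nt+/+ mice that did not pass the test (adjusted p = 0.0628). In this list 1 gene rose in Nt+/+ mice with DESeq2, with at least 10 counts, with upper quartile normalization, in a fit of the groups compared, and without fed Nt+/+ replicate 1 or fasted Nt-/- replicate 1. Of 6 measured CDK inhibitors none passed in Nt+/+ mice (1 of 6 at an unadjusted p under 0.05 in edgeR, and 1 called by DESeq2). The smallest p-values there were those of Cdkn1a (0.42, adjusted p = 0.0629), Cdkn2b (0.13, adjusted p = 0.351) and Cdkn2c (−0.11, adjusted p = 0.490). In Nt-/- mice Cdkn1a, an inhibitor induced by stress, rose (0.49, SE 0.17, adjusted p = 0.0381), a call that was lost without a filter, with sex as a covariate, with the mouse of disagreeing labels moved, without the 2 shallow libraries and without fed Nt-/- replicate 2 or 3 or fasted Nt-/- replicate 2, 3 or 5. With fasted Nt+/+ replicate 1 or 5 left out, or with replicate 5 moved, 1 of the 6 was called in Nt+/+ mice. Cdkn2a, the seventh, did not pass the filter on low counts.

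The pocket proteins, which hold E2Fs in check, did not move together. Rb1 fell in Nt+/+ mice (−0.50, SE 0.10, adjusted p = 0.000991) and in Nt-/- mice (−0.36, adjusted p = 0.0121). Rbl1, itself an E2F target, fell in Nt+/+ mice (−0.23, SE 0.07, adjusted p = 0.0266). Rbl2, the pocket protein of resting cells, had a log2 fold change of 0.10 in Nt+/+ mice (adjusted p = 0.350) and rose in Nt-/- mice (0.30, SE 0.07, adjusted p = 0.00469), as did Tfdp2, which encodes DP2 (0.25, adjusted p = 0.0411). The difference between the 2 effects of fasting on Rbl2 was 0.21 (SE 0.10, adjusted p = 1.00, edgeR), so it was not shown to differ between genotypes. Only 1 of the 2 falls in Nt+/+ mice passed without fed replicate 2 or 5 or fasted replicate 3 or 4 of that genotype. Likewise 1 of the 2 rises in Nt-/- mice passed without any one of the 4 fed Nt-/- mice, fasted Nt-/- replicate 1, 4 or 5, or fasted Nt+/+ replicate 2.

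Among 7 genes of the MuvB complex and its partners MYB and FOXM1, which carry the program on into G2, 2 fell in Nt+/+ mice, Mybl2 (−0.50, SE 0.13, adjusted p = 0.0108) and Lin9 (−0.35, SE 0.10, adjusted p = 0.0210), and Rbbp4 did not pass (−0.19, adjusted p = 0.0893). In Nt-/- mice the same 2 fell, Mybl2 by −0.68 (adjusted p = 0.00154) on the log2 scale, with Foxm1 (−0.52, adjusted p = 0.0104). The count in Nt+/+ mice was 1 without fed replicate 1 or fasted replicate 4 of that genotype, and 4 without its fasted replicate 1. None of the 3 genes listed for the turnover of E2F proteins passed in either genotype: Skp2 had the smallest p in both (−0.23 and −0.42, adjusted p = 0.296 and 0.0617), and Ccnf and Fzr1 followed in Nt+/+ mice (−0.13 and −0.05). At an unadjusted p under 0.05 edgeR gave 0 of the 3 in Nt+/+ mice and 2 of the 3 in Nt-/- mice, and DESeq2 called none. Without the 2 shallow libraries, or either of them, edgeR called 1 of the 3 in Nt-/- mice, and 2 without fasted Nt+/+ replicate 3.

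Of the apoptosis genes listed as E2F1 targets, 6 were tested, 3 of which had a log2 fold change below 0 in each genotype. In Nt+/+ mice 1 rose and 1 fell, and in Nt-/- mice 3 rose and 1 fell. Counts of so few genes are not read as a trait of the list. Bcl2l11, which encodes the death-promoting protein BIM, rose in Nt+/+ mice (0.39, SE 0.13, adjusted p = 0.0367) and in Nt-/- mice (0.58, adjusted p = 0.00440). The other rises in Nt-/- mice were those of Bbc3 (0.76, adjusted p = 0.0410) and Pmaip1 (1.13, adjusted p = 0.0257), and without the 2 shallow libraries 2 of 6 rose. Without fed Nt-/- replicate 1, 2 or 3 or fasted Nt-/- replicate 3, 1 of 6 rose there. In Nt+/+ mice none rose without fed replicate 1, 4 or 5 or fasted replicate 2, 3 or 4 of that genotype, and 2 rose without its fasted replicate 1. With 1 mouse left out, 1 to 3 genes fell in Nt+/+ mice and 1 to 2 in Nt-/- mice.

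Of 10 genes listed as partners of E2F6 in its Polycomb complex, 1 fell and 2 rose in Nt+/+ mice, against 10.4% and 11.2% of all genes. Mga fell (−0.59, SE 0.08, adjusted p = 4.53e-05), and Rnf2 (0.35, SE 0.09, adjusted p = 0.0111) and Max (0.30, SE 0.10, adjusted p = 0.0367) rose. In Nt-/- mice Mga (−0.56, adjusted p = 0.000103) and L3mbtl2 (−0.43, adjusted p = 0.00822) fell, and Max, Rnf2 and Yaf2 rose. That is 2 of 10 and 3 of 10, against 12.6% and 12.5% of all genes. Such small counts are not read as a trait of the list. MGA is the DNA-binding scaffold of the complex. A single gene rose in Nt+/+ mice without fed replicate 1, 2, 3 or 5 or fasted replicate 3 or 4 of that genotype, and 2 fell without fed replicate 3.

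**Figure D4:**
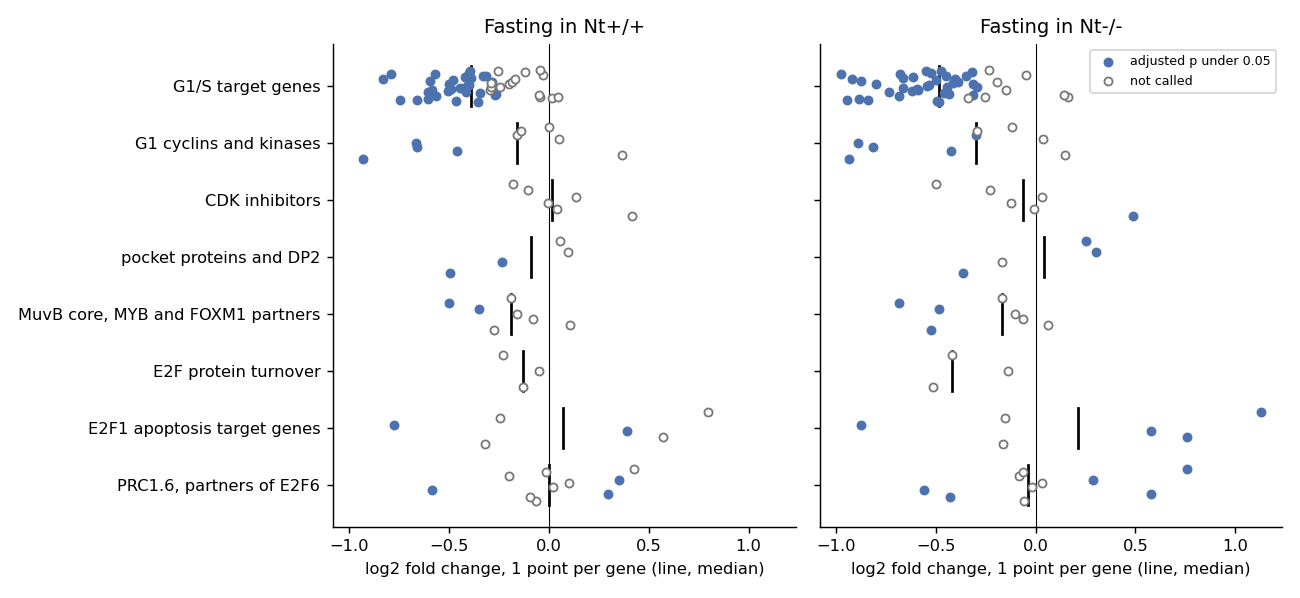
Log2 fold change of each gene of the 8 pathway lists for fasting in Nt+/+ mice (left) and in Nt-/- mice (right), with filled points at an adjusted p under 0.05 and a black line at each list's median. The target genes of S phase entry lie mostly left of 0 in both panels, and the apoptosis, pocket protein and Polycomb lists have genes on both sides of 0.

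The second question was whether loss of neurotensin changed the family. In ad libitum–fed mice none of the 9 members differed between genotypes at an adjusted p under 0.05, nor did any at an unadjusted p under 0.05, in edgeR, and DESeq2 also called none. The log2 fold changes (Nt-/- relative to Nt+/+) ran from −0.10 for E2f3 to 0.05 for E2f5, and the ranges of the fed groups overlapped for every member. At this threshold 0.00559% of all genes were called, which is 1 gene, Nts itself. The 95% intervals bounded the change of E2f2 between −0.26 and 0.18, that of E2f7 between −0.30 and 0.13 and that of E2f8 between −0.27 and 0.17. For E2f1 the interval was wider, from −0.42 to 0.34.

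In fasted mice the members also did not pass the test (0 of 9 in edgeR and in DESeq2, against 0.00559% of all genes, again Nts). Of their log2 fold changes 8 of 9 lay below 0, against 52.7% of all genes. In edgeR 3 of 9 had an unadjusted p under 0.05, against 1634 of all 17875 genes. The 3 were E2f8 (−0.30, SE 0.10, adjusted p = 0.348), E2f7 (−0.23, SE 0.10, adjusted p = 0.481) and E2f2 (−0.23, SE 0.10, adjusted p = 0.503), all by edgeR. For E2f8 the fasted Nt-/- mice spanned 31.6 to 46.6 CPM and the fasted Nt+/+ mice 40.6 to 58.0 CPM, so the groups overlapped, as they did for all 9 members. With the mouse of disagreeing labels moved to the Nt-/- group, the value of E2f8 was −0.17 and that of E2f2 −0.16. That move goes against the Nts level of this mouse. Without the 2 shallow libraries E2f2 stood at −0.11 and E2f1 at −0.04, against −0.21 for E2f1 with them, and without fasted Nt+/+ replicate 3 they stood at −0.14 and −0.06. Without fasted Nt-/- replicate 1 or 2, E2f1 stood at −0.36 or −0.13. E2f3 was the one member with a value above 0 (0.09). The dividing-cell markers had a median of −0.26 in this comparison, with 6 of 6 below 0 and none called by edgeR, and the 8 enterocyte markers were all above 0, with none called by edgeR and 1 by DESeq2. Their part in these values was not tested.

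In the pathway lists no gene was called for loss of neurotensin in fasted mice. Of the 45 target genes of S phase entry, 43 had a log2 fold change below 0 (median, −0.20) and 20 an unadjusted p under 0.05, of which Uhrf1, a reader of hemimethylated DNA, had the smallest (−0.34, adjusted p = 0.334, edgeR). Over all genes, 52.7% had a log2 fold change below 0 and 1634 of 17875 an unadjusted p under 0.05. The smallest p of the other lists belonged to Rbl2 (0.24, adjusted p = 0.275), L3mbtl2 (−0.37, adjusted p = 0.308), Bcl2l11 (0.32, adjusted p = 0.450), Foxm1 (−0.31, adjusted p = 0.475), Cdk2 (−0.19, adjusted p = 0.563), Ccnf (−0.40, adjusted p = 0.581) and Cdkn1a (0.26, adjusted p = 0.662). In fed mice the smallest p of each list belonged to Cdt1, Ccnd1, Rnf2, Apaf1, Cdkn1a, Mybl2, Rbl1 and Fzr1, with log2 fold changes from −0.35 (Ccnd1) to 0.19 (Cdkn1a and Rnf2) and an adjusted p of 1 each.

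Whether fasting acted differently in the 2 genotypes was asked with the difference between the fasting effects. It passed for no member (0 of 9, with none at an unadjusted p under 0.05 in edgeR and none called by DESeq2) and for 0% of all genes, of which 485 had an unadjusted p under 0.05. The largest differences were those of E2f8 (−0.25, 95% interval −0.55 to 0.05, adjusted p = 1.00, edgeR) and E2f2 (−0.19, 95% interval −0.50 to 0.12). E2f1 and E2f4, which passed in Nt-/- mice alone, differed between the genotypes by −0.17 (95% interval −0.70 to 0.36) and −0.09 (95% interval −0.39 to 0.21), so their fasting effects were not shown to differ. In the pathway lists no gene passed either. The smallest p belonged to Pola2 (−0.23) and L3mbtl2 (−0.34), and the smallest of the remaining lists were those of Rbl2, Bcl2l11, Foxm1, Ccnf, Cdkn2d and Ccnd2, with log2 differences from −0.38 (Ccnf) to 0.21 (Rbl2) and an adjusted p of 1.00 each. Of the 45 target genes, 42 had a difference below 0 (median, −0.13), against 52% of all genes, and 1 an unadjusted p under 0.05. The 2 fasting effects use separate mice, and all 4 groups share the estimate of the spread.

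Lastly, the members were compared with each other and with all other genes by Pearson's r of log2 CPM over the 19 mice, among 13225 genes of at least 1 log2 CPM on average. The r within groups, taken on deviations from the group means, is given beside it, because fed and fasted mice form separate clusters for several members. These are descriptions over mice that also share library depth and makeup, so no p is given. E2f7 and E2f8 followed each other (r = 0.929, within groups 0.563), and E2f1 followed Tfdp1 (r = 0.897, within groups 0.815). E2f3 followed none of the other 8, with r between −0.071 and 0.28.

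The genes most like E2f1 were Mcm2, a subunit of the replicative helicase (r = 0.943, within groups 0.904), Adsl (0.943 and 0.897) and Dhx37 (0.937 and 0.875). For E2f2 they were Nup205 (0.979 and 0.866), Frrs1 (0.974 and 0.767) and Syk (0.969 and 0.745). For E2f8 they were Top2a, the topoisomerase of dividing cells (0.977 and 0.889), Uros (0.968 and 0.830) and Kif4, a mitotic motor (0.967 and 0.798). E2f7 was most like Rnpep (0.950, within groups 0.561), Mrpl38 (0.947 and 0.731) and Syk (0.946 and 0.608), with a lower r within groups than over all mice in each case. Tfdp1 was most like Mlec (0.978 and 0.947), Ran (0.976 and 0.923) and Fkbp4 (0.974 and 0.908), which followed it within groups as well.

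The r within groups stayed near that over all mice for the remaining members. E2f4 was most like Sdf2l1 (r = 0.936, within groups 0.865), Ap3d1 (0.932 and 0.877) and Slc35c1 (0.929 and 0.854). E2f5 was most like Nup153 (0.843 and 0.873), Zfp605 (0.823 and 0.811) and Skp2, a subunit of the ubiquitin ligase that degrades E2F1 (0.814 and 0.833). E2f6 was most like Nrep (0.911 and 0.894), Auts2 (0.897 and 0.871) and Fem1b (0.894 and 0.890). E2f3 was most like Rhbdl2 (0.878 and 0.870), followed by Sh3d19 (0.781 and 0.851) and Mylk (0.779 and 0.741).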

How the data were processed

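The authors made ribosomal RNA–depleted libraries from crypts, read them from one end, cut adapters with Trimmomatic 0.39 and assigned the reads with RSEM to the Ensembl genes of GRCm38; the RSEM version and strand setting are not given in the sources used here. The deposited files hold 1 expected count per gene and mouse, not normalized, with reads that fit several genes divided by RSEM's model. They also hold TPM, which the authors' run scaled per effective length and library, and the effective length in bases, another unit that was not used. Expected counts were rounded and tested with edgeR 4.0.16 (R 4.3.3): TMM normalization, filterByExpr, 1 coefficient for each of the 4 groups, no covariate, 15 residual degrees of freedom, a common dispersion of 0.0357, and the quasi-likelihood test with Benjamini-Hochberg adjustment over 17875 genes at 0.05. The test was checked on simulated data. CPM use TMM library sizes, and log2 CPM a prior count of 2. TPM was used to set genes side by side and to describe the family's sum and shares, with no test. Intervals and p-values measure the spread between these mice.

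The members, lists and motifs were chosen with earlier results of these data known. Genes are named by rule: all members; in each pathway list the 3 smallest p-values for fasting in Nt+/+ mice and the smallest in every other comparison; and the 3 genes most correlated with each member. Some genes that the rule names are not reported here. Genes named to complete a count of 5 or fewer, and Ccnd2, were added after their values were seen. Alternatives were no filter, a minimum of 10 counts in each mouse, DESeq2 1.42.0, upper quartile scaling, a block for either replicate number, sex as a covariate (which drops the 1 mouse without a sex label), the mouse with disagreeing labels moved, only the groups compared, each mouse left out and, added after the data were seen, both shallow libraries left out.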

Additional observations from a re-analysis of the deposited data

Results flagged for a closer look

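In each of the 36 sets made by 1 member and 1 group of mice, the mouse farthest from the others was checked with Dixon's ratio at its 95% limit, which chance alone passes in about 1 of 20 sets. It was passed in 2. E2f3 in replicate 1 of the fasted Nt+/+ group stood at 23.29 CPM, below the nearest mouse at 29.7 CPM. E2f6 in replicate 1 of the fasted Nt-/- group stood at 16.93 CPM, above the nearest at 13.95 CPM. Without the first mouse the log2 fold change of E2f3 for fasting in Nt+/+ mice was −0.15. Without the second, that of E2f6 for fasting in Nt-/- mice was −0.39 (adjusted p = 0.0234, edgeR). With all mice E2f6 was near the threshold and not called there (adjusted p = 0.0581, edgeR). Some other settings that kept this mouse also called E2f6, as listed below.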

How the results depend on the processing

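E2f2, E2f7, E2f8 and Tfdp1 kept their calls for fasting in both genotypes under each alternative, and no alternative called a member for genotype or for the difference in fasting effect. Members called ranged from 4 to 6 of 9 (fasting in Nt+/+ mice) and from 4 to 7 (Nt-/-) with 1 mouse left out. With the 2 shallow libraries left out they were 4 and 4, and with the mouse of disagreeing labels moved, 4 and 6. That move, here and in the other results given for it, goes against the Nts level of this mouse. The call of E2f1 for fasting in Nt-/- mice was lost without a filter (adjusted p = 0.0582), with sex as a covariate (0.0579), in a fit of the groups compared (0.0630), and without fed Nt+/+ replicate 5, fasted Nt+/+ replicate 2, fed Nt-/- replicates 1, 3 or 4, or fasted Nt-/- replicates 2, 3, 4 or 5 (adjusted p from 0.0512 to 0.129, edgeR). E2f1 was called for fasting in Nt+/+ mice without replicate 3 of the fasted group (−0.50, adjusted p = 0.0438). E2f4 was called for fasting in Nt+/+ mice with at least 10 counts (adjusted p = 0.0443), upper quartile normalization (0.0420), and without fed Nt+/+ replicate 2 (0.0353), fasted Nt+/+ replicate 3 (0.0269) or fasted Nt-/- replicate 1 (0.0389). E2f6 was called for fasting in Nt-/- mice with at least 10 counts (0.0407), upper quartile normalization (0.0399), and without fasted Nt+/+ replicate 1 (0.0374) or 4 (0.0485) or fasted Nt-/- replicate 1 (0.0234). Sign changes were limited to values near 0 that no fit called. For loss of NT in fed mice these were E2f6 without a filter (0.0038) and with the title block (0.005), E2f1 with the file-name block (0.0355) and with sex (0.0012), and E2f2 with the file-name block (0.0089). E2f5 changed sign for loss of NT in fasted mice with the regrouped mouse (0.0075), and Tfdp1 in the difference with the regrouped mouse (0.0188) and without the shallow libraries (0.0289). With 1 mouse left out, log2 fold changes for loss of NT in fed mice ran from −0.126 to 0.0442 (E2f1), −0.0784 to 0.0142 (E2f2), −0.0994 to 0.0055 (E2f4), −0.0092 to 0.0819 (E2f5) and −0.0469 to 0.0512 (E2f6); for loss of NT in fasted mice from −0.0865 to 0.0085 (E2f5); for fasting from −0.105 to 0.120 (E2f3, Nt-/-) and −0.0808 to 0.0196 (E2f5, Nt+/+); and for the difference from −0.113 to 0.0028 (Tfdp1). The cause of these changes was not tested.

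The replicate number in the titles and that in the file names do not come with a stated meaning. Once group means were removed, mice with one number had a mean r of 0.184 over 27 pairs for the titles (19 of 27 over 0.1; 13 of 19 mice correlated best with their own number) and 0.227 for the file names (24 of 27; 17 of 19), against −0.046 and −0.056 in 108 other pairs. The lowest same-numbered pair was at −0.127 (titles) and 0.067 (file names), so not every pair was over 0.1, and the block was kept as an alternative. The file-name values are a hint of pairing. Mice with the same file-name number also share a sex wherever the labels give it. The study describes its controls as littermates matched for sex and age. Neither the labels nor the study says that the numbers mark such matches, and the main test does not use them. With a replicate block, 6 members were called for fasting in Nt+/+ mice and 7 in Nt-/- mice for either number, which adds E2f1 (adjusted p = 0.0271 and 0.0387) and E2f4 (0.0185 and 0.0179) in Nt+/+ mice and E2f6 (0.0214 and 0.0292) in Nt-/- mice. Over all 17875 genes the 2 blocks called 5006 and 5484 in Nt+/+ mice, against 3862 without a block. In Nt-/- mice they called 5657 and 5672, against 4499. Under the 2 blocks, 36 and 37 of the 45 target genes fell in Nt+/+ mice and 40 and 40 in Nt-/- mice. In Nt+/+ mice 1 G1 cyclin or kinase gene rose and 3 apoptosis genes fell under either, and in Nt-/- mice 2 and 1 CDK inhibitors fell and 1 and 0 rose. The target genes of S phase entry that fell in Nt+/+ mice numbered 21 to 35 of 45 with 1 mouse left out, and 33 to 39 in Nt-/- mice. In the short lists, the MuvB genes that fell in Nt+/+ mice numbered 1 to 4 with 1 mouse left out, the apoptosis genes that rose 0 to 2 (Nt+/+) and 1 to 3 (Nt-/-), and the pocket protein genes that fell 1 to 2 (Nt+/+). DESeq2 called 101 genes for loss of NT in fasted mice, none a member, against 1 in edgeR. Depth limits E2f1 most, at 45 counts in its shallowest mouse.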
